A study of Equus caballus with 15 samples.

Results

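A2ML1, A2M, LRP1 and LRPAP1 code for protease inhibitors of the alpha-2-macroglobulin family and for the receptor and chaperone that serve their clearance, and they were followed by gene symbol through all 5 conditions of a macrophage experiment. They are 4 of the 16932 genes with deposited values, and 3 of them reached the mean of 1 CPM needed for a test, where CPM are the reads of a gene scaled to a common library total. A2ML1 was selected on these same libraries, because its level was higher with IL-1ß and far lower with PRP lysate and ACS. Its levels and ratios are therefore given as a description with no test, and tests are given for LRP1 and LRPAP1 only.

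Macrophages were grown from blood mononuclear cells of a pair of horses with 30 ng/ml human M-CSF in medium with fetal bovine serum, which all conditions shared. The paper does not state whether a library held cells of a single horse or of both. Untreated macrophages received no cytokine, and the IL-1ß condition received 10 ng/ml IL-1ß alone. The other conditions received the same IL-1ß together with an orthobiologic therapy (OT) at 25% of the medium, namely conditioned medium of bone marrow mesenchymal stromal cells (MSC-CM), platelet rich plasma that had been lysed (PRP lysate) or autologous conditioned serum (ACS). Treatment lasted 24 h. By the sample labels the cells were then washed and lysed, whereas the paper describes a wash and another 24 h in fresh medium before collection, so it is open whether the values belong to the end of treatment or to a time after its removal. Each condition had 3 libraries. Replicate numbers come from the labels, except for ACS, whose libraries have none there and were numbered here in record order as names only. Per the paper, the IL-1ß and the untreated libraries are technical replicates, while each OT library carries the product of another donor horse, so the p-values measure a partly technical spread. The OTs all came from the same 3 donor horses, which were not the macrophage donors, and the labels do not say which library holds the product of which donor.

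Alpha-2-macroglobulins are large secreted inhibitors that offer proteases a bait region, fold around the protease that cuts it and so trap it. A2M, the plasma form, is made mainly in the liver, and it carries trapped proteases to LRP1, a large endocytic receptor that is abundant on macrophages and also takes up lipoproteins, protease and inhibitor complexes and cell debris. A2ML1 is a relative of A2M best known from skin and other stratified epithelia. LRPAP1, also called RAP, is a chaperone of the endoplasmic reticulum that keeps newly made LRP1 from binding its ligands too early.

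Between 28410733 and 47894070 reads lay on genes in each library. IL-1ß replicate 3 and PRP lysate replicate 1 stood apart on the first principal component, with scores of -103 and -51.7, while the remaining libraries scored from -20.7 to 26.6. The same libraries had a low level of long genes relative to short genes. This gene length score is the mean log2 deviation of the longest 10% of genes minus that of the shortest 10%, and it was -1.01 and -0.615 in them against -0.250 to 0.345 elsewhere. As to the cell type, all 8 macrophage markers had a mean of at least 1 CPM in every condition, with CD68 at a mean of 1430 to 2019 CPM, but CD14 stayed at 1.75 to 3.46 CPM. T cell markers summed to 292 to 845 CPM, so the cultures were not macrophages alone by this measure.

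A2ML1 (ENSECAG00000024232) lies on chromosome 6, 36982936 to 37019212 in EquCab3.0. In untreated macrophages its level was 37.9, 28.4 and 16.7 CPM in replicates 1, 2 and 3. With IL-1ß it was 248, 150 and 60.0 CPM. The IL-1ß group lay wholly above the untreated group, but its own libraries spread widely, and replicate 3 was the lowest. The means were 27.7 ± 10.6 (SD, n = 3) and 153 ± 94.1 CPM (SD, n = 3), a ratio of 5.51. By this change A2ML1 ranked 2nd from the top of the 11628 genes tested, with a difference of 2.27 on the log2(CPM + 1) scale.

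MSC-CM with IL-1ß left A2ML1 at 78.1, 40.7 and 150 CPM. These libraries overlapped those of IL-1ß alone, and each of them lay above all untreated libraries. The mean was 89.4 ± 55.3 CPM (SD, n = 3), which is 3.23 times the untreated mean, while the mean with IL-1ß alone was 1.71 times that with MSC-CM.

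PRP lysate with IL-1ß gave 4.54, 19.7 and 16.9 CPM, and ACS with IL-1ß gave 17.8, 15.8 and 12.4 CPM. All 6 libraries lay below every library of IL-1ß alone and of MSC-CM. Both groups overlapped the untreated group and each other. The means were 13.7 ± 8.09 and 15.3 ± 2.71 CPM (SD, n = 3 each), and the mean with IL-1ß alone was 11.1 and 9.96 times as high. The log2 difference from IL-1ß was -3.37 for PRP lysate and -3.03 for ACS, the 6th and the 4th lowest of the 11628 genes. Against MSC-CM they were -2.64 and -2.29, and PRP lysate differed from ACS by -0.35.

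**Figure D1:**
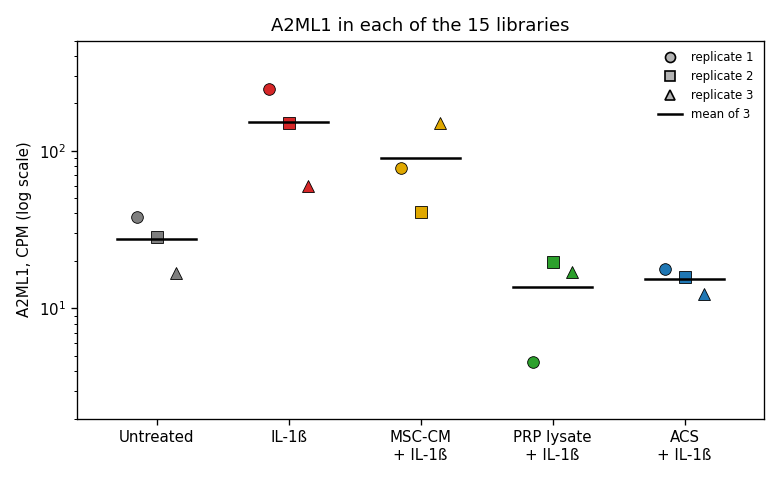
A2ML1 in CPM on a log axis in each of the 15 libraries, with symbols for replicates 1 to 3 and a bar for the mean of the 3 libraries in a condition. The 6 libraries with PRP lysate or ACS sit at 4.54 to 19.7 CPM, below all libraries with IL-1ß alone or MSC-CM, which run from 40.7 to 248 CPM.

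In order of level the conditions ran IL-1ß, MSC-CM, untreated, ACS and PRP lysate. Of the neighbours in that order, IL-1ß and MSC-CM did not lie apart, nor did untreated and ACS, nor ACS and PRP lysate, whereas MSC-CM and untreated did. Among all 16932 listed genes A2ML1 stood at rank 1279 by its CPM with IL-1ß, at 2399 with MSC-CM, at 5765 in untreated macrophages, at 7669 with ACS and at 7840 with PRP lysate. CPM values are not divided by gene length, so such a rank shows where the reads of 1 gene fell and is no comparison of transcript numbers between genes. The depth behind these values was 169 to 8928 reads a library, so counting error was small beside the spread between libraries.

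Leaving out 1 library at a time moved the difference between IL-1ß and untreated macrophages over 1.81 to 2.83, with the lowest value without IL-1ß replicate 1 and the highest without IL-1ß replicate 3. The same steps moved the difference from IL-1ß over -3.93 to -2.77 with PRP lysate and over -3.58 to -2.57 with ACS. The value of -2.77 was without PRP lysate replicate 1 and that of -3.93 without IL-1ß replicate 3, the libraries that stood apart, and without both it was -3.33. Each of them had the lowest A2ML1 level of its own condition. With MSC-CM the range was wider in proportion, from -1.29 to -0.27. Of the 7 differences only PRP lysate against ACS changed sign among these steps, with a range of -0.70 to 0.25, and it did so without PRP lysate replicate 1. Without that library the difference of PRP lysate from MSC-CM was -2.04 in place of -2.64.

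The samples are bulk RNA, in which fewer cells of a type and less RNA per cell cannot be told apart. Of 8 markers of epithelium, where A2ML1 is best known, 4 were analysed here, and they summed to 17.6 to 24.3 CPM untreated, 21.3 to 30.5 CPM under IL-1ß, 18.6 to 21.2 CPM with MSC-CM, 19.7 to 42.3 CPM with PRP lysate and 25.3 to 37.0 CPM with ACS. EPCAM had a mean of at most 0.0887 CPM in any condition and KRT1 of at most 1.14 CPM. SFN had means of 13.0 to 17.8 CPM, and CDH1 had 4.85 CPM untreated, 6.02 CPM with IL-1ß, 5.81 CPM with MSC-CM, 10.1 CPM with PRP lysate and 14.4 CPM with ACS. The 4 endothelial markers summed to 246 to 504 CPM under IL-1ß, 178 to 396 CPM under MSC-CM, 165 to 291 CPM in untreated macrophages, 101.5 to 131 CPM under ACS and 52.5 to 81.7 CPM under PRP lysate. Nearly all of that sum was PECAM1, an adhesion molecule that leukocytes also carry, and its means of 400 CPM with IL-1ß, 286 CPM with MSC-CM, 235 CPM untreated, 110.1 CPM with ACS and 63.7 CPM with PRP lysate had the order of A2ML1. The others did not share it. CDH5 had a mean of 9.53 CPM untreated against 2.04 CPM with IL-1ß, KDR had 1.41 to 1.77 CPM in all conditions, and VWF had at most 0.0753 CPM. Of the 8 macrophage markers 2 had this order. CD163, a scavenger receptor, had means of 563 CPM with IL-1ß, 481 CPM with MSC-CM, 243 CPM untreated, 64.6 CPM with ACS and 11.4 CPM with PRP lysate, and AIF1 had 25.8, 20.04, 18.0, 11.6 and 9.35 CPM. The other 6 did not, with CD68 and MSR1 highest untreated. All 8 together summed to 3420 to 6403 CPM with IL-1ß, 4318 to 5285 CPM with MSC-CM, 4184 to 6308 CPM untreated, 3646 to 4894 CPM with ACS and 2034 to 4234 CPM with PRP lysate.

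B cell markers summed to 23.1 to 47.6 CPM with IL-1ß, 20.55 to 28.4 CPM with MSC-CM, 13.7 to 21.3 CPM untreated, 11.9 to 17.8 CPM with ACS and 10.7 to 28.2 CPM with PRP lysate, so that the IL-1ß libraries were above the untreated ones as for A2ML1. T cell markers summed to 391 to 845 CPM with IL-1ß, 556 to 626 CPM with MSC-CM, 368 to 839 CPM with PRP lysate, 349 to 445 CPM with ACS and 292 to 423 CPM untreated. Neutrophil markers, nearly all of them CSF3R, summed to 485 to 546 CPM with PRP lysate and 530 to 759 CPM with ACS, and to 309 to 391 CPM with IL-1ß, 268 to 430 CPM with MSC-CM and 324 to 389 CPM untreated, the reverse of A2ML1 for the PRP lysate and ACS libraries against those of IL-1ß. MPO and ELANE, which are transcribed mainly in neutrophil precursors, had means of at most 2.02 and 0.160 CPM. The part of these markers in the A2ML1 pattern was not tested.

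Across the 15 libraries the genes whose log2(CPM + 1) followed A2ML1 most closely were P2RY14, a receptor for UDP-sugars, with a Pearson r of 0.959, WDR59, a regulator of mTORC1 signalling, with 0.956, and PFKFB3, which promotes glycolysis, with 0.956. NUCB2, a calcium-binding protein, followed with 0.948 and SMPDL3A, a secreted phosphodiesterase, with 0.947. The libraries share their conditions, so these values in part describe differences between conditions and carry no p-value. Mean CPM of P2RY14 was 5.89 with IL-1ß, 4.54 with MSC-CM, 2.55 untreated, 1.63 with ACS and 1.24 with PRP lysate, the order of A2ML1 over a narrower range. PFKFB3 kept that order too, at 486, 454, 298, 247 and 209 CPM. NUCB2 did not, with 37.7 CPM under IL-1ß and 37.9 CPM under MSC-CM. Ranked by Spearman's rho, 2 of these 5 genes stayed among the 10 closest, and CAPN3, a calpain protease, came first with a rho of 0.968.

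A2ML1 sits 124 kb from A2M (ENSECAG00000012558, chromosome 6, 37142927 to 37263084), with PHC1, M6PR and KLRG1 between them. A total of 12 listed genes lie within 500 kb of A2ML1, and none overlaps it. Of the 5 that were tested, 4 were called in none of the comparisons with IL-1ß. These were ENSECAG00000024719, RIMKLB, M6PR, a receptor that sorts lysosomal enzymes, and KLRG1, a lectin-like receptor of lymphocytes. Their log2 fold changes lay between -0.45 and 0.36 for IL-1ß against untreated macrophages, between -0.07 and 0.48 for MSC-CM, between -0.38 and 0.20 for PRP lysate and between -0.41 and 0.65 for ACS.

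The exception was PHC1, a Polycomb protein. It had 54.0, 36.7 and 22.4 CPM with IL-1ß and 67.3, 73.6 and 87.2 CPM with ACS, and these groups did not overlap. The log2 fold change was 1.07 (adjusted p = 0.0318), and the call was lost without any 1 of 5 of the 6 libraries. With edgeR, DESeq2, RLE or TMM scaling the log2 fold change was 0.92 to 0.97, just under 2-fold, with adjusted p-values of 0.000820 to 0.0290. It was in the direction opposite to A2ML1, whose difference in the same comparison was -3.03. The share of all tested genes called higher with ACS was 1.23%.

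**Figure D2:**
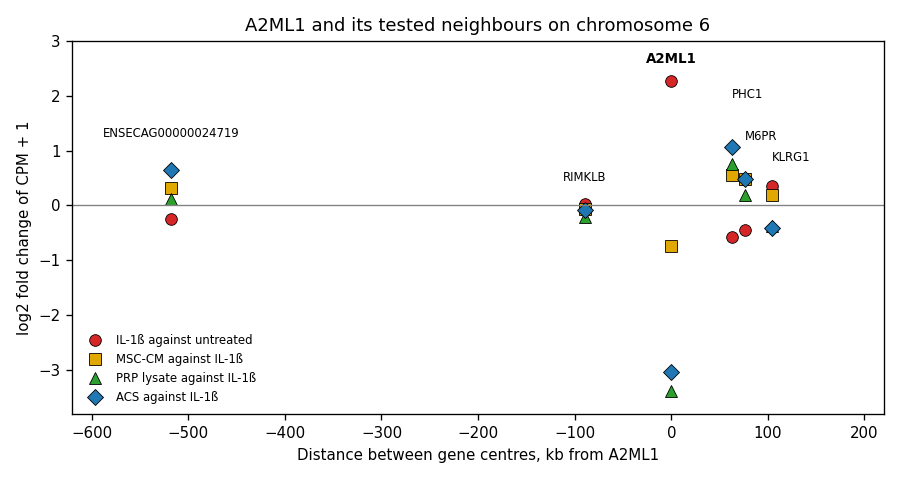
Log2 fold changes of A2ML1 and of the 5 tested genes within 500 kb of it in the comparisons with IL-1ß, against the distance between gene centres in kb. A2ML1 spans 2.27 to -3.37, while its neighbours stay between -0.58 and 1.07.

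A2M itself had almost no reads. It was listed at 0 in 8 of the 15 libraries, held 27 reads in all, and exceeded 3 reads in 4 libraries. The highest value was 0.204 CPM, or 9 reads, in MSC-CM replicate 1, followed by 0.140 CPM in MSC-CM replicate 3 and 0.102 CPM in untreated replicate 1. All 3 PRP lysate libraries were at 0, and 3 reads there would have been 0.0717 to 0.106 CPM. Levels of this size allow neither a ratio nor a test. Liver markers were low too, with 4 hepatocyte genes summing to at most 1.07 CPM in any library, though ALB, at up to 0.874 CPM, exceeded the highest value of A2M. Condition means of ALB ran in the order of A2ML1 at this low level, from 0.667 CPM with IL-1ß to 0.145 CPM with PRP lysate. The gene ENSECAG00000024571 lies inside the span of A2M, and its own mean was 0.00557 CPM.

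Of the 15 listed genes within 500 kb of A2M 8 were tested, A2ML1, RIMKLB, PHC1, M6PR and KLRG1 among them. The other 3 were KLRB1, a lectin-like receptor of natural killer and T cells, ENSECAG00000019259 and ENSECAG00000035478, and none of them was called in the comparisons with IL-1ß or in that of IL-1ß with untreated macrophages. Their log2 fold changes ran from -0.21 to 0.57. Of the rest of the A2M family, CD109, a membrane-anchored relative, had 2.52 to 41.1 CPM across libraries, with 35.7, 15.5 and 2.52 CPM in the IL-1ß group alone. Its log2 fold change for IL-1ß against untreated macrophages was -1.06 (SE 0.64, adjusted p = 0.493). The complement protein C5, a distant relative, had a mean of at most 0.141 CPM. PZP, CPAMD8, OVOS2 and C3, also of this family, were not analysed here.

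LRP1 (ENSECAG00000012166, chromosome 6, 75714765 to 75805157) was well expressed in every library, at 242 to 769 CPM. Untreated macrophages had 474, 769 and 492 CPM, and macrophages with IL-1ß had 707, 389 and 242 CPM. The spread within the IL-1ß group alone covered nearly the whole range of the gene. The log2 fold change was -0.47 (SE 0.35, adjusted p = 0.565, 95% interval -1.23 to 0.29). In the same comparison 0.138% of the 11628 genes were called higher and 0.155% lower with called meaning an adjusted p no higher than 0.05 together with a change of 2-fold or more.

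With MSC-CM, LRP1 had 375, 419 and 324 CPM, a log2 fold change of -0.13 against IL-1ß (adjusted p = 0.896, 95% interval -0.89 to 0.63). With limma 0% of all genes were called higher and 0% lower in this comparison, while 651 had an unadjusted p under 0.05, edgeR called 0 and DESeq2 called 2. PRP lysate gave 295, 598 and 601 CPM (log2 fold change 0.22, adjusted p = 0.777, 95% interval -0.54 to 0.98) and ACS gave 545, 642 and 542 CPM (log2 fold change 0.50, adjusted p = 0.360, 95% interval -0.26 to 1.26). All OT groups overlapped the IL-1ß group, and the interval with ACS includes a 2-fold change.

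Between OTs, the 3 ACS libraries lay above the 3 MSC-CM libraries. Their log2 difference was 0.63 (SE 0.35, adjusted p = 0.487, 95% interval -0.13 to 1.39), and it was under 2-fold. Fitted on those 6 libraries alone, with their smaller spread, the adjusted p was 0.0113. PRP lysate differed from MSC-CM by 0.35 (adjusted p = 0.809) and from ACS by -0.28 (adjusted p = 0.842).

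LRPAP1 (ENSECAG00000014825, chromosome 3, 118596748 to 118617368) varied least of the 3 tested members, with 166 to 320 CPM. Untreated macrophages had 237, 206 and 208 CPM and those with IL-1ß had 186, 242 and 320 CPM, a log2 fold change of 0.17 (SE 0.18, adjusted p = 0.670, 95% interval -0.22 to 0.56). The groups overlapped, and in the IL-1ß group the order of the libraries was the reverse of that for LRP1.

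With MSC-CM LRPAP1 had 227, 178 and 209 CPM (log2 fold change -0.26 against IL-1ß, adjusted p = 0.705), and with PRP lysate 222, 179 and 166 CPM (-0.38, adjusted p = 0.302). ACS gave 183, 179 and 167 CPM, all below the IL-1ß libraries. The log2 fold change with ACS was -0.46 (adjusted p = 0.183, 95% interval -0.85 to -0.08), it moved to -0.27 without IL-1ß replicate 3 and to -0.66 without IL-1ß replicate 1, where the adjusted p was 0.0355, and it did not reach 2-fold. Differences between OTs were -0.12 for PRP lysate against MSC-CM, -0.21 for ACS against MSC-CM and 0.09 for PRP lysate against ACS, with adjusted p-values of 0.714 to 0.899. Neither LRP1 nor LRPAP1 was called in any of the 7 comparisons, by limma, edgeR or DESeq2. Of their 14 unadjusted limma p-values only that of LRPAP1 with ACS against IL-1ß was under 0.05 (0.0228). Over the same comparisons limma called 1.36% of the tests of all genes, and 12.8% had an unadjusted p under 0.05.

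**Figure D3:**
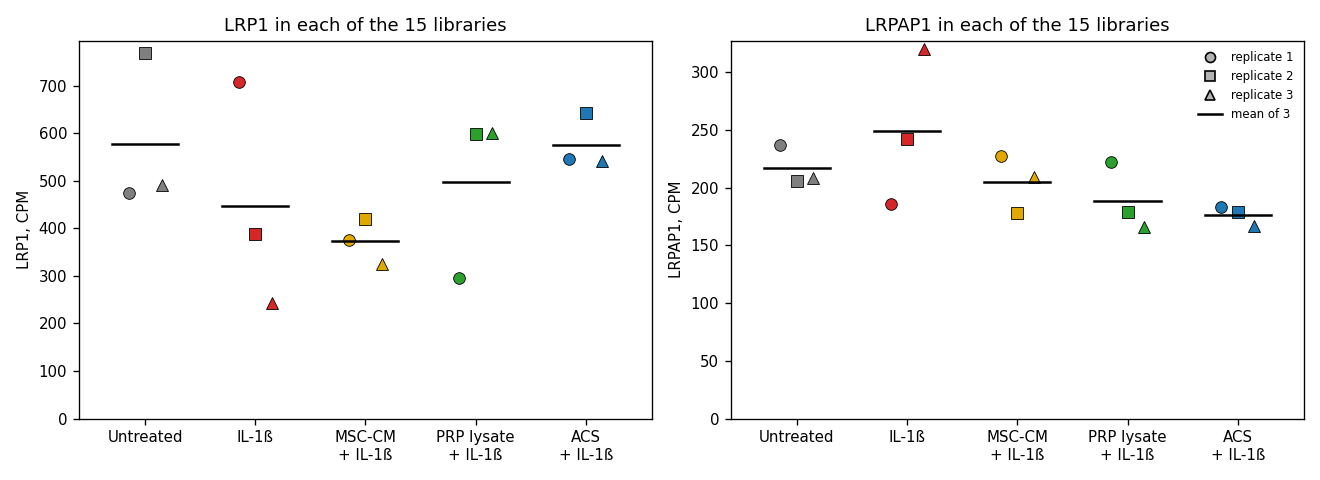
LRP1 and LRPAP1 in CPM in each of the 15 libraries on axes that start at 0, with symbols for replicates 1 to 3 and a bar for the mean of the 3 libraries in a condition. In IL-1ß replicate 3 LRP1 is at its lowest, 242 CPM, and LRPAP1 at its highest, 320 CPM.

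The receptor and its chaperone varied in opposite directions between libraries, with a Pearson r of -0.72 between their log2 values over 15 libraries. Their ratio, LRPAP1 over LRP1 in CPM, was 1.32 in IL-1ß replicate 3 and 0.752 in PRP lysate replicate 1, and 0.263 to 0.645 in all other libraries. Those are the libraries with the lowest gene length scores. Over all 15 libraries LRP1 went with that score at r = 0.83 and LRPAP1 against it at r = -0.84, and A2ML1, whose level differed most between conditions, had r = 0.08. With the mean of each condition subtracted from both measures the r was 0.91 for LRP1, -0.92 for LRPAP1 and 0.73 for A2ML1. In the IL-1ß group the A2ML1 levels followed the order of the score, and in the other conditions they did not. With ACS A2ML1 ran against it, at 17.8 CPM for a score of 0.219 and 12.4 CPM for a score of 0.279. LRP1 spans 90.4 kb, LRPAP1 20.6 kb and A2ML1 36.3 kb. The same 2 libraries had the highest sums of T cell markers, 845 and 839 CPM against 292 to 626 CPM elsewhere, and the lowest sums of macrophage markers, 3420 and 2034 CPM against 3646 to 6403 CPM. The part of the score and of these markers in the values of LRP1, LRPAP1 and A2ML1 was not tested.

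**Figure D4:**
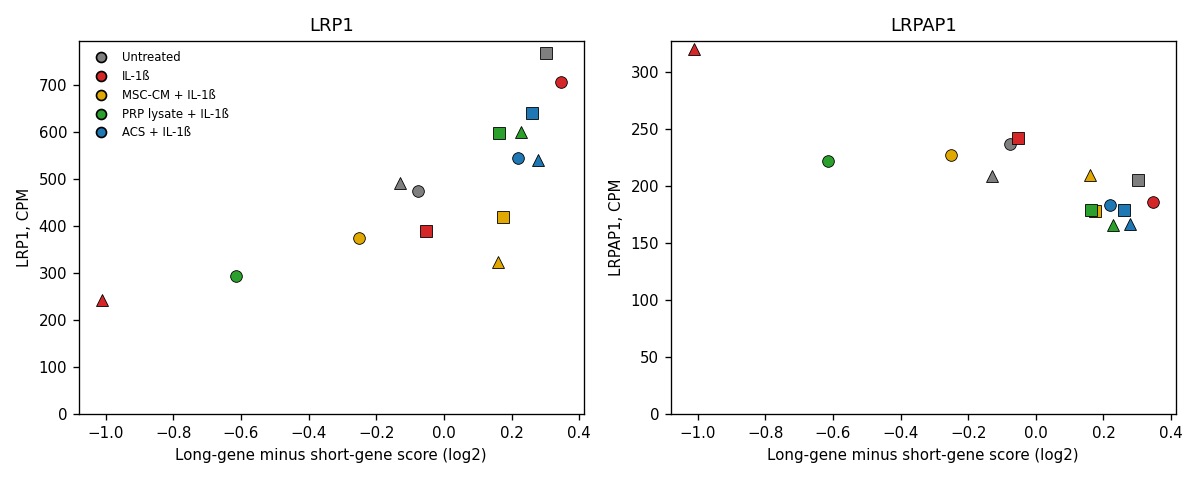
LRP1 and LRPAP1 in CPM against the gene length score of each library, the mean log2 deviation of the longest 10% of genes minus that of the shortest 10%, with colours for conditions and symbols for replicates. The libraries with scores of -1.01 and -0.615 hold the lowest values of LRP1, 242 and 295 CPM.

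The genes most like LRP1 over the libraries were FMN1, a formin that builds actin filaments (r = 0.956), DST, a very large cytoskeletal linker (r = 0.942), and ABL2, a tyrosine kinase (r = 0.941). DST had 161, 68.5 and 23.1 CPM in the IL-1ß group, the order seen for LRP1. The genes most like LRPAP1 were NAGK, which recovers N-acetylglucosamine (r = 0.983), LGALS3BP, a secreted galectin-binding protein (r = 0.958), and LONP1, a mitochondrial protease (r = 0.958). NAGK had 96.9, 128 and 186 CPM in the IL-1ß group, the order seen for LRPAP1. By Spearman's rho 2 of the 3 genes for LRP1 and 1 of the 3 for LRPAP1 stayed among the 10 closest.

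A list of 91 other genes of the A2M and LRP1 system was drawn up by role, of which 79 have deposited values and 62 were tested. Since all OTs are set against the same IL-1ß libraries, their fold changes are not independent of each other. For IL-1ß against untreated macrophages 0 of the 62 were called higher and 1 lower, beside the shares of 0.138% and 0.155% over all genes, while 15 had an unadjusted p under 0.05, where 13% of all genes did. In either direction edgeR called 2 of the list and 27 of all genes (0.197%), and DESeq2 called 3 and 173 (1.24%). The median log2 fold change was -0.22 in the list and -0.07 over all genes. The gene called was TIMP3, an inhibitor of metalloproteinases that stays bound to the matrix, with 57.5, 65.6 and 91.1 CPM untreated and 31.6, 27.8 and 23.5 CPM with IL-1ß. The groups did not overlap, and the log2 fold change was -1.32 (adjusted p = 0.0341). This call was lost without any 1 of 5 of the 6 libraries. It was also lost with only the groups compared (limma adjusted p = 0.472) and with the replicate block (0.263). HSPA5, a general chaperone of the endoplasmic reticulum, had 824, 770 and 747 CPM untreated and 1884, 2039 and 1062 CPM with IL-1ß. These groups did not overlap either, and the log2 fold change of 1.03 missed the call with limma (adjusted p = 0.0627) and was called by edgeR (adjusted p = 0.0354) and DESeq2 (2.99e-05). With MSC-CM against IL-1ß 0 of the 62 genes were called by limma, by edgeR or by DESeq2, and 6 had an unadjusted p under 0.05, where 5.6% of all genes did, and edgeR and DESeq2 called 0% and 0.0118% of all genes. The median was 0.07 in the list and 0.16 over all genes.

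PRP lysate against IL-1ß had 3 genes of the list called higher and 4 lower, where 1.07% and 2.02% of all genes were called. An unadjusted p under 0.05 was found for 27 of the 62 and for 17.5% of all genes, edgeR called 8 of the list and 2.84% of all genes, and DESeq2 called 12 and 4.74%. The median log2 fold change was 0.17 in the list and 0.11 over all genes. The highest was TIMP3, at 105, 113 and 67.6 CPM, all above the IL-1ß group (log2 fold change 1.72, SE 0.21, adjusted p = 0.000445). With only the groups compared its call was lost (limma adjusted p = 0.0625). VLDLR, a receptor of the LRP1 family for lipoproteins, had 77.3, 119 and 112 CPM against 68.0, 49.9 and 21.6 CPM (1.246, adjusted p = 0.0367), and its call was lost without any 1 of 4 of the 6 libraries, among them IL-1ß replicate 3, without which the log2 fold change was 0.78. SPINT1, a membrane-bound inhibitor of serine proteases, had 27.7, 36.2 and 32.8 CPM against 14.95, 15.8 and 13.7 CPM (1.07, adjusted p = 0.00156), and its call was lost with RLE or TMM scaling and without PRP lysate replicate 2.

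Among the genes called lower with PRP lysate was SLPI, a secreted inhibitor of leukocyte elastase, with 9.90, 13.6 and 11.5 CPM under IL-1ß and 2.36, 2.37 and 1.97 CPM under PRP lysate (log2 fold change -1.96, adjusted p = 0.00540). MMP1, a collagenase that A2M traps, had 417, 576 and 552 CPM against 100, 197 and 209 CPM (-1.66, adjusted p = 0.00242). PLAU, the urokinase protease that LRP1 clears in complex with its inhibitor, had 209, 226 and 129 CPM against 40.3, 91.9 and 109 CPM (-1.30, adjusted p = 0.0398), and its call was lost without any 1 of 4 libraries. HSPA5 had 1884, 2039 and 1062 CPM against 718, 679 and 760 CPM (-1.15, adjusted p = 0.00650). Its call was lost without IL-1ß replicate 2 and with a replicate block over the 12 numbered libraries (limma adjusted p = 0.0654). Its mean with PRP lysate, 719 CPM, was near the untreated mean of 780 CPM. In all 4 genes the groups lay apart, but these genes were named because they were called, so this is no further support. Of all list genes called with PRP lysate against IL-1ß, SLPI alone kept its call with only the groups compared.

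ACS against IL-1ß had 4 genes called higher and 1 lower, where 1.23% and 0.98% of all genes were called. Of the 62, 21 had an unadjusted p under 0.05 (20.5% of all genes), edgeR called 5 (1.77%) and DESeq2 8 (4.01%). The median was 0.27 in the list and 0.13 over all genes. TIMP3 reached 172, 164 and 159 CPM, a log2 fold change of 2.54 (adjusted p = 7.72e-05), and this call held in every alternative run for this comparison. TFPI2, an inhibitor of serine proteases in the matrix, had 16.9, 33.6 and 40.7 CPM against 9.17, 11.4 and 5.53 CPM (1.66, adjusted p = 0.00913), lost without ACS replicate 2 or 3. KLKB1, plasma prekallikrein, which A2M inhibits once activated, had 21.4, 21.7 and 11.02 CPM against 7.39, 7.60 and 2.59 CPM (1.52, adjusted p = 0.0376).

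VLDLR had 107.1, 100.3 and 106 CPM with ACS (1.30, adjusted p = 0.0384), and HSPA5 had 834, 735 and 689 CPM (-1.09, adjusted p = 0.0152). The calls of KLKB1, VLDLR and HSPA5 were lost without any 1 of 4, 5 and 4 of the 6 libraries, and without IL-1ß replicate 3 the log2 fold change of VLDLR was 0.83. With only the groups compared, TIMP3 alone of the list genes called with ACS kept its call. For all 4 genes called higher with ACS, IL-1ß replicate 3, the library with the lowest gene length score, was the lowest of the 6 in the comparison.

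**Figure D5:**
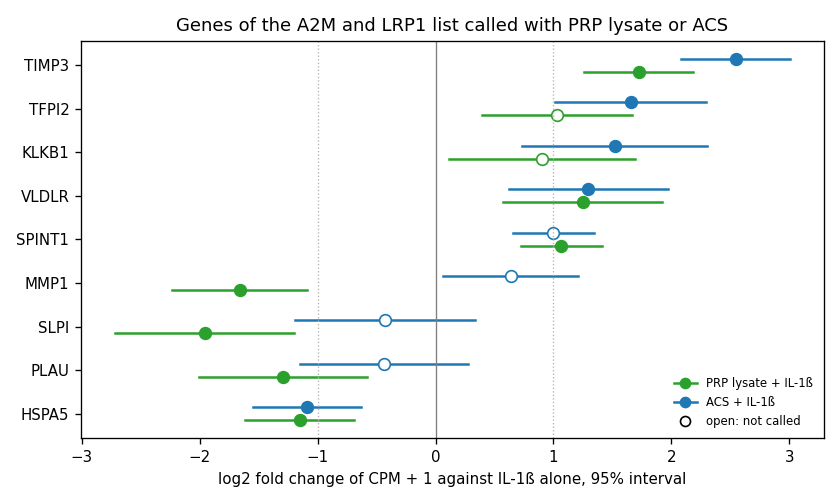
Log2 fold changes with 95% intervals for the 9 genes of the list called with PRP lysate or ACS against IL-1ß, where filled points are called and open points are not. TIMP3 is highest with both products, at 1.72 and 2.54, and HSPA5 is lowest with ACS, at -1.09.

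Directly against MSC-CM, PRP lysate had 2 genes called higher and 4 lower, beside 0.8% and 1.81% of all genes, with a median of -0.10 in the list and -0.09 over all genes. Of the 62, 22 had an unadjusted p under 0.05 (14.5% of all genes), edgeR called 7 (2.24%) and DESeq2 9 (3.66%). TIMP3 (log2 fold change 1.70) and TFPI (1.42), the main inhibitor of tissue factor and an LRP1 ligand, were higher. TFPI had 13.8, 11.8 and 16.0 CPM with PRP lysate against 4.26, 4.11 and 5.27 CPM with MSC-CM. SLPI (-2.14), PLAU (-1.59), HSPA5 (-1.40) and MMP1 (-1.35) were lower, with adjusted p-values of 0.00216 to 0.0144. ACS against MSC-CM had 3 genes called higher, TIMP3 (2.52), TFPI2 (1.62) and TFPI (1.13), and 1 lower, HSPA5 (-1.34), beside 0.593% and 0.636% of all genes. Here 19 of the 62 had an unadjusted p under 0.05 (13.5% of all genes), edgeR called 4 (0.921%) and DESeq2 7 (2.14%). The median was 0.14 in the list and -0.04 over all genes. The call of MMP1 was lost without MSC-CM replicate 3, that of PLAU without MSC-CM replicate 1 or 3 and with a replicate block over the 12 numbered libraries (adjusted p = 0.0869, but 0.0198 with the block over the 6 libraries of this comparison alone), and that of TFPI2 without any 1 of 4 libraries.

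PRP lysate against ACS had 0 genes of the list called higher and 1 lower, where 0% and 0.0946% of all genes were called. By unadjusted p, 11 of the 62 were under 0.05, where 5.19% of all genes were. EdgeR called 1 of the list and 11 of all genes (0.0804%), and DESeq2 called 2 and 61 (0.47%). The median was -0.15 in the list and -0.04 over all genes. The gene called was MMP1, with 676, 877 and 847 CPM under ACS, above all libraries of the other conditions (log2 fold change -2.30, SE 0.27, adjusted p = 0.00264). For MMP1 the products thus differed from each other, whereas A2ML1 had overlapping levels with both.

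By role, none of the 10 proteases that process LRP1 (FURIN, ADAM10 and the presenilin complex among them) and none of the 7 tested adaptors of its cytoplasmic tail was called by limma in any of the 7 comparisons. Over these comparisons 9 of 70 tests of the proteases and 7 of 49 tests of the adaptors had an unadjusted p under 0.05, shares of 12.9% and 14.3% beside 12.8% of the 81396 tests of all genes. EdgeR and DESeq2 called 0 of the proteases and each called 1 of the adaptors with PRP lysate against IL-1ß, where they called 2.84% and 4.74% of all genes. That was DAB2, an endocytic adaptor, whose log2 fold change with PRP lysate against IL-1ß was -1.28 with limma (adjusted p = 0.0582 with limma, 0.0457 with edgeR and 0.00370 with DESeq2). Of the 10 tested receptors of the LDL receptor family other than LRP1, VLDLR was the only one called by limma, with PRP lysate and with ACS against IL-1ß. That is 2 of 70 tests (2.86%) beside 1.36% of the tests of all genes, and 15.7% had an unadjusted p under 0.05. Of the 4 tested receptor chaperones, HSPA5 was called lower with PRP lysate and with ACS, against IL-1ß and against MSC-CM, while MESD, a chaperone particular to LRP receptors, had condition means of 37.4 to 41.2 CPM. The remaining chaperones were under 2-fold and not called. HSP90B1 had means of 1015 CPM with IL-1ß, 671 CPM with PRP lysate and 730 CPM with ACS (log2 fold changes -0.58 and -0.46, limma adjusted p = 0.0955 and 0.190), and CALR had 1506, 1012 and 939 CPM (-0.57 and -0.67, limma adjusted p = 0.0643 and 0.0399). Of the 28 tests of chaperones 4 were called (14.3%) and 50% had an unadjusted p under 0.05. Of the 11 tested inhibitors other than the members, TIMP3, TFPI2, SLPI and SPINT1 were called in at least 1 comparison, SLPI lower and the others higher with an OT, beside TIMP3 lower with IL-1ß. That is 10 of 77 tests (13%), and 44.2% had an unadjusted p under 0.05. Proteases that A2M inhibits had 4 of 49 tests called (8.16%) and 38.8% under 0.05, and LRP1 ligands had 4 of 84 called (4.76%) and 32.1% under 0.05. These genes were listed with results of these data known and the comparisons share libraries, so the shares describe the list and were not tested.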

How the data were processed

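The authors deposited CPM for 16932 protein-coding genes in 15 libraries of polyadenylated RNA, made in Partek Flow with cutadapt, STAR 2.7.3, EquCab3.0, HTSeq and Ensembl annotation. Strand use in counting is not given in the sources used here, so overlapping genes and near-identical copies are uncertain. All columns matched a sample, and 0 were left unmatched. Reads were recovered from the smallest step of each library, and 99.6% of values were whole within 0.1 reads.

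The 11628 genes whose mean reached 1 CPM entered limma 3.58.1 (trend) on log2(CPM + 1), 15 libraries in a model of 5 conditions, with Benjamini-Hochberg adjustment within each comparison. Called means an adjusted p of at most 0.05 and at least 2-fold. The pseudocount of 1 shrinks fold changes of low genes. Alternatives were a pseudocount of 0.1, no filter, RLE or TMM scaling, edgeR 4.0.16 and DESeq2 1.42.0 on recovered reads, only the groups compared, a replicate block, and leaving out libraries. Same-numbered MSC-CM and PRP lysate libraries deviated together (r from 0.255 to 0.635, 3 pairs). Untreated libraries, which received no product, reached an r of 0.59 with PRP lysate and 0.556 with MSC-CM. Such values therefore do not show that same-numbered libraries share a donor. Every other combination of the 4 numbered conditions had at least 1 pair below 0, and the main fit pairs nothing. Scripts were tested on simulated data in R 4.3.3 and Python 3.11.15.

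Members, lists and tests were chosen with earlier results of these data known. Named are the members, up to 8 called list genes in a comparison, the 5 (A2ML1) or 3 (LRP1, LRPAP1) genes with the highest Pearson r, and genes within 500 kb of A2ML1 or A2M or overlapping a member. Likeness to A2M was not computed because of its low values. CAPN3 and the marker genes named singly were chosen after their values were seen.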

Additional observations from a re-analysis of the deposited data

How the results depend on the processing

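LRP1 and LRPAP1 were recomputed 206 times over the 7 comparisons, and 198 of these values kept their direction and their side of the threshold. The other 8 changed sign, and none of them was called. Leaving out 1 library at a time gave log2 fold changes of -0.0281 to 0.360 for LRPAP1 with IL-1ß against untreated, -0.499 to 0.272 for LRP1 with MSC-CM against IL-1ß, -0.148 to 0.623 for LRP1 with PRP lysate against IL-1ß, -0.451 to 0.061 for LRP1 and -0.0332 to 0.176 for LRPAP1 with PRP lysate against ACS. Without IL-1ß replicate 3 and PRP lysate replicate 1 together, an alternative chosen after seeing the data, the values were -0.0281 for LRPAP1 with IL-1ß and 0.061 for LRP1 and -0.0332 for LRPAP1 with PRP lysate against ACS. The cause was not tested.

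The count of list genes called depended more on the settings. With DESeq2 it was 3 for IL-1ß against untreated, 12 for PRP lysate and 8 for ACS against IL-1ß, 7 for ACS against MSC-CM and 2 for PRP lysate against ACS, in place of 1, 7, 5, 4 and 1. With only the groups compared it was 0, 1 and 1 for IL-1ß, PRP lysate and ACS, 3 for PRP lysate against MSC-CM and 0 for PRP lysate against ACS, where fewer libraries set the spread. With RLE, TMM or edgeR it was 2 for IL-1ß against untreated, and without the filter 3 for ACS against IL-1ß. Leaving out 1 library gave 0 to 2 for IL-1ß, 4 to 8 for PRP lysate and 1 to 9 for ACS. The lowest for PRP lysate was without IL-1ß replicate 2, and for ACS the lowest was without ACS replicate 2 and the highest without IL-1ß replicate 1. Without the pair of libraries named above it was 2 for IL-1ß against untreated, 13 in place of 6 for PRP lysate against MSC-CM and 2 for PRP lysate against ACS. Of all genes, DESeq2 called 173 in place of 34 with IL-1ß, 694 in place of 359 with PRP lysate and 574 in place of 257 with ACS, each against its control, and 488 in place of 304, 292 in place of 143 and 61 in place of 11 for PRP lysate and ACS against MSC-CM and PRP lysate against ACS.

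The median of all genes for MSC-CM against IL-1ß moved from 0.16 to 0.00 with RLE and 0.03 with TMM scaling, and those for PRP lysate and ACS from 0.11 and 0.13 to 0.02 with RLE. No sign of LRP1 or LRPAP1 turned with either. Over all 18 pairs of same-numbered libraries r ran from -0.775 to 0.635, with 11 over 0.1, and the main fit does not take the numbers as pairs. With a replicate block over the 12 numbered libraries the list count was 0 for IL-1ß, 4 for PRP lysate against IL-1ß and 5 for PRP lysate against MSC-CM. With the block over the 6 libraries of the last comparison alone, chosen after seeing the data, it was 6, and LRP1 and LRPAP1 stayed uncalled.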
